A study of Homo sapiens with 6 samples.

Results

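The genes described here encode the proteasome and the factors that assemble and regulate it, in human motor neurons made from H9, a widely used embryonic stem cell line. Members were chosen by name: protein-coding genes whose symbol is PSMA, PSMB, PSMC, PSMD, PSME, PSMF or PSMG followed by a number. The rule found 47 members among the 57820 genes of the deposited count table, and 1 known subunit, PSMB3, matched no row. Of the 47, 18 encode the 20S core, 17 the 19S cap, 5 other activators or an inhibitor, and 7 assembly chaperones. The naming rule uses no measured value, but it was chosen with earlier results of these data known.

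Motor neuron progenitors, wild type in both groups, had been differentiated in a neural medium with retinoic acid (RA) at 0.01 μM and SAG, a Hedgehog pathway agonist, at 0.1 μM. The labels give 3 replicates kept under normal gravity (NG) and 3 under simulated microgravity (SMG), produced with a 2D clinostat, which turns cells slowly about an axis so that gravity has no constant direction. Whether replicates were separate cultures is not labelled. The p-values therefore set the difference between groups only against the spread among these libraries, and that spread may be technical. All cells come from a single line, and the sources used here do not give the duration of the treatment.

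The 26S proteasome degrades proteins tagged with ubiquitin. Its 20S core is a barrel of alpha and beta rings with the proteolytic sites inside, and its 19S cap binds ubiquitin, unfolds the substrate with a ring of ATPases and opens the gate of the barrel. Dedicated chaperones build the core and the base of the cap, and cytokines such as interferon-gamma exchange the catalytic beta subunits for inducible ones, giving the immunoproteasome. Neurons rely on the system to clear damaged proteins and to remodel synapses.

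Total counts ranged from 16329907 to 22685870 per library, and the members took 0.347 to 0.348% of the counts in NG and 0.336 to 0.342% in SMG. In a marker check of the labelled cell type, the motor neuron genes MNX1, ISL1, CHAT, SLC18A3 and LHX3 were all expressed, with a summed level of 238 to 265 CPM in NG and 316 to 319 in SMG, and 4 of the 5 rose. CPM are counts scaled to library size, with TMM factors. Once a trend with length and base composition was taken out, 2 of these 5 genes were higher. Progenitor markers (SOX2, OLIG2, NES, PAX6 and VIM) summed to 3373 to 3637 CPM in NG and 3372 to 3493 in SMG, with 3 of the 5 lower as measured, 2 with the trend removed, and 0 higher. The 6 leukocyte markers, defining genes of cells rich in immunoproteasome, summed to at most 1.23 CPM in NG and 1.71 in SMG. AIF1 was at 0 in all libraries. Like PSMB8 and PSMB9 it lies in the major histocompatibility region, but it is not among the neighbours of those genes counted below. Whether its zeros reflect low expression was not tested. In bulk RNA, fewer cells of a type and less RNA per cell cannot be told apart, and the part of cell composition in the values below was not tested.

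The members that held their call under each of the 18 alternative analyses were 3 of the 16 called: PSMD10 and PSME1, both lower in SMG, and PSMG4, higher. Their promoter sequences are shown for that reason, together with that of PSMD9, which had the largest rise and the most motif matches of the 4. Each line gives the 150 bases before the RefSeq start of the gene (build GRCh38.p14), 5′ to 3′ on the gene's strand. Capitals mark matches, on either strand, to the CCAAT box bound by NF-Y, to TGACNNNGC, the core of the antioxidant response element bound by NFE2L1 and NFE2L2, to CCGGAAG, an ETS family site, or to ACGTG, the core of the hypoxia response element.
PSMD10, chrX:108091543-108091692, minus strand: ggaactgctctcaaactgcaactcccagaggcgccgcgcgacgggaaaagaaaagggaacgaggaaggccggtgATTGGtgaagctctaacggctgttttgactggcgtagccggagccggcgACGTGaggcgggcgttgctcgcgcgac
PSME1, chr14:24136044-24136193, plus strand: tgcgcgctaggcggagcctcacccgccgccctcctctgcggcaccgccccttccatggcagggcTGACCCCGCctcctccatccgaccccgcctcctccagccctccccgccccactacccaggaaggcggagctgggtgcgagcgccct
PSMG4, chr6:3258797-3258946, plus strand: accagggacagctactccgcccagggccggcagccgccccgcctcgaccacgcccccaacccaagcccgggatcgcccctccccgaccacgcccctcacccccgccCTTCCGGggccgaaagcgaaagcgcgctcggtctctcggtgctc
PSMD9, chr12:121888640-121888789, plus strand: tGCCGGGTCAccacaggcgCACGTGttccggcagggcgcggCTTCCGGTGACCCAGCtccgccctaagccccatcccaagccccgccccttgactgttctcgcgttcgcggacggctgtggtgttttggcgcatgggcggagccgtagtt

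The 4 windows hold different matches: CCAAT and ACGTG in PSMD10, TGACNNNGC in PSME1, CCGGAAG in PSMG4, and all but CCAAT in PSMD9, where an ETS match runs directly into a TGACNNNGC match. In PSMD9 the ACGTG match and its reverse complement overlap in the palindrome CACGTG. Over the 250 bases before the start, a promoter was matched for 41 of the 47 members. PSMA7, PSMB1, PSMB6, PSMB7, PSMD4 and PSMG3 had no entry. TGACNNNGC was present in 24.4% of the members' windows (10 of 41), and in 3013 of all 27305 promoters (the first listed start per symbol). Among the parts, it was present in 4 of 6 assembly chaperones and 3 of 5 activators, against 1 of 14 core and 2 of 16 cap genes. CCGGAAG was present in 24.4% of the members' windows against 8.8% of all promoters, and in 6 of 16 cap genes. CCAAT was found for 41.5% of the members (33.0% of all promoters) and ACGTG for 17.1% (18.7%). By call, TGACNNNGC was found in 2 of 9 lower, 1 of 4 higher and 6 of 24 members tested but not called, among those with a promoter. In the same order, CCAAT was found in 5 of 9, 1 of 4 and 9 of 24. CCGGAAG was found in 1 of 9, 2 of 4 and 6 of 24, and ACGTG in 1 of 9, 1 of 4 and 4 of 24. These are matches of letters, not measured binding.

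Setting SMG against NG asks which proteasome genes differ in level between the gravity conditions. Differences were small. The 6 core genes that passed were all lower, with changes of -12.5 to -8.12%, and those of the cap that passed lay on both sides of 0. As measured, larger changes were seen in single accessory genes. The chaperone PSMD10 fell by 20.3%, the activator subunit PSME1 fell by 18.9%, and the chaperones PSMG4 and PSMD9 rose by 21.1% and 24.3%. With a trend in length and base composition removed, PSMD10 was at -0.16 on the log2 scale. PSMD9 was at 5.23 to 7.79 CPM with overlapping groups, and its call was lost in 6 of the 18 alternative analyses. Of the 47 members, 43 passed the filter on low counts and were tested. In edgeR's quasi-likelihood test, 16 of the 43 passed, against 35.8% of all genes. Of these, 12 of the 43 were lower in SMG (27.9%; 18.5% of all 17803 genes tested) and 4 were higher (9.30%; 17.3% of all genes), at a Benjamini-Hochberg adjusted p under 0.05 over all genes. The median log2 fold change, SMG minus NG, was -0.08 over the 43 and -1.83e-04 over all genes. The groups did not overlap for 20 of the 43 members (46.5%), against 46.3% of all genes. A set nearer to most members in level is the 9880 protein-coding genes at 10 CPM or more in NG. Of that set, 2674 were lower and 2173 higher, and the groups did not overlap for 5768. The members' share called lower was close to that of this set. Their shares called higher and without overlap were below it.

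Fold changes varied with transcript length and base composition. Across 9880 protein-coding genes at 10 CPM or more in NG, log2 fold changes had a Pearson correlation of 0.44 with GC content and 0.16 with the length of the longest transcript. Across the 43 members the correlation was 0.08 with GC content and 0.47 with length. Both are descriptions over genes of the same libraries. Members under 2000 bases had a median of -0.12 (n = 17), and longer members one of -0.04 (n = 26). The 9880 protein-coding genes had a similar split, with medians of -0.11 (n = 1176) and -0.01 (n = 8704). After removal of each library's trend with length and GC content, 7 members were lower (16.3%; 15.0% of 17193 genes) and 8 higher (18.6%; 15.8%), and the members' median was 0.0023. With the trend removed, the share of members called in each direction was close to that of all genes. As measured, the share called lower was already close to that of the protein-coding genes at 10 CPM or more (2674 of 9880). That set was not counted with the trend removed. For members whose call differs, values with the trend removed are given beside those as measured.

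**Figure D1:**
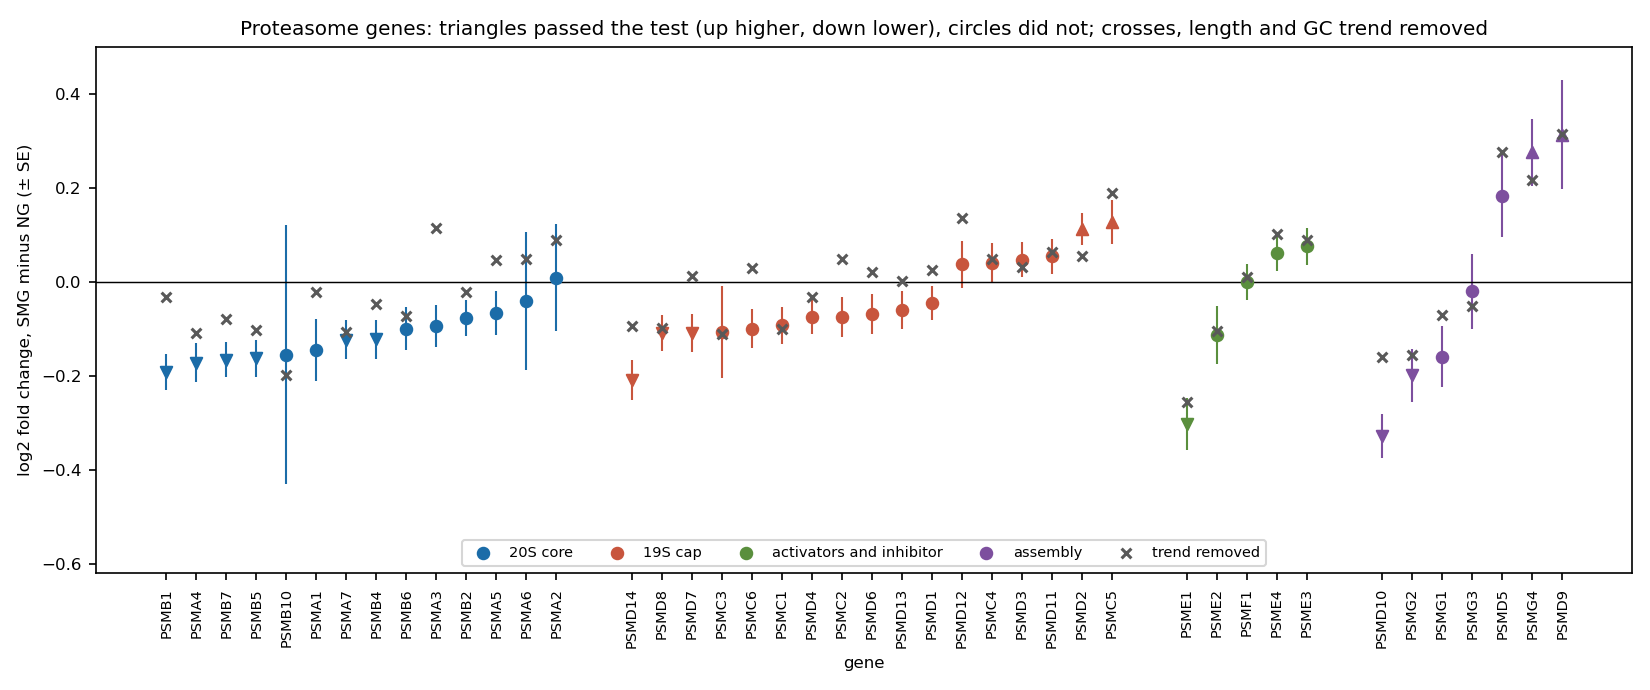
Log2 fold change (SMG minus NG, vertical axis, ± SE, n = 3 libraries per group) of each of the 43 tested members, grouped by part of the proteasome; triangles passed edgeR's test, circles did not, and grey crosses are the values with the length and GC trend removed. Below 0 lie 13 of 14 core genes as measured, and the crosses lie nearer to or above 0 for most of them.

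**Figure D2:**
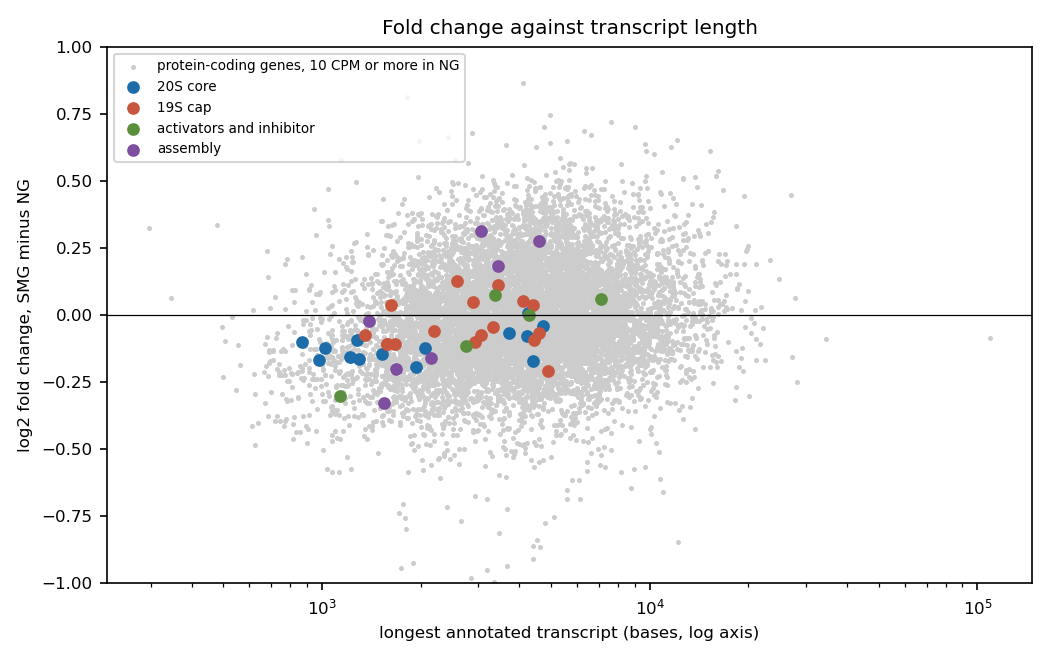
Log2 fold change against the length of the longest annotated transcript (bases, log axis) for the tested members (coloured by part) over protein-coding genes at 10 CPM or more in NG (grey; 25 of 9880 lie beyond the vertical axis). Short members sit lower than long ones in the median, and so do short genes of the grey set.

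Of the 14 core genes tested, 6 fell and 0 rose, and 13 had a negative fold change (median -0.12). The 6 are 42.9%, against 18.5% of all genes and 2674 of the 9880 protein-coding genes at 10 CPM or more. Of all genes, 17.3% were higher. After trend removal, 2 were lower and 1 higher, with a median of -0.04. Among the alpha subunits, which form the outer rings and the gate, 2 of 7 tested fell. PSMA4 (alpha3) was at 163, 151 and 147 CPM in the NG libraries and at 144, 131 and 135 in SMG. All SMG libraries lay below all NG libraries, though the nearest pair was close (log2 fold change -0.17 ± 0.04 SE, edgeR adjusted p = 0.00221). Its value after trend removal was -0.11 (adjusted p = 0.0578). PSMA7 (alpha4) fell by 0.12 on the log2 scale (adjusted p = 0.0200), and by 0.11 with the trend removed (adjusted p = 0.0208). Its call ended with DESeq2 (adjusted p = 0.0680), with library size scaling alone, and without NG replicate 1, SMG replicate 1 or SMG replicate 3 (up to 0.181). PSMA3 (alpha7) changed sign: -0.09 as measured (adjusted p = 0.108) and 0.12 with the trend removed (adjusted p = 0.0199).

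The constitutive catalytic subunits carry the proteolytic sites. PSMB7 (beta2), the trypsin-like site, was at 138, 135 and 127 CPM in NG and at 118, 120 and 118 in SMG. The SMG libraries were nearly equal and all below NG (-0.17 ± 0.04, edgeR adjusted p = 8.25e-04; -0.08 with the trend removed, adjusted p = 0.0698). PSMB5 (beta5), the chymotrypsin-like site and the main target of proteasome inhibitor drugs, was at 87.5, 88.7 and 88.1 CPM in NG and at 78.4, 77.5 and 80.2 in SMG. The NG libraries spread by little more than 1 CPM, and the groups stood apart (-0.16 ± 0.04, edgeR adjusted p = 0.00179). PSMB5 was also lower with the trend removed (-0.10, adjusted p = 0.0271), but neither PSMB5 nor PSMA7 passed when the trend was fitted to the principal transcript of each gene (adjusted p = 0.0550 and 0.364). PSMB6 (beta1), the caspase-like site, was at 65.1, 64.4 and 62.8 CPM in NG and at 58.3, 62.6 and 58.6 in SMG. Its groups did not overlap, with a gap far smaller than the spread within SMG, and it did not pass (-0.10 ± 0.05, edgeR adjusted p = 0.0883).

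Of the non-catalytic beta subunits, PSMB1 (beta6) had the deepest fall of the core. It stood at 109, 113 and 107 CPM in NG and at 95.8, 98.1 and 93.8 in SMG, with no overlap (-0.19 ± 0.04, edgeR adjusted p = 2.13e-04). After trend removal it was at -0.03 (adjusted p = 0.522). PSMB4 (beta7) also fell as measured (-0.12, adjusted p = 0.0220), with overlapping groups, and was at -0.05 with the trend removed (adjusted p = 0.407). Its call also ended with DESeq2 (adjusted p = 0.0609), with library size scaling alone, and without NG replicate 1, NG replicate 2 or SMG replicate 3 (up to 0.144). PSMB2 (beta4) did not pass, at -0.08.

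The inducible catalytic subunits were at or near 0. PSMB8 (beta5i) and PSMB9 (beta1i) are listed at 0 in all 6 libraries, but most of their neighbours in the major histocompatibility region are at or near 0 too, including genes that every cell uses. Of 41 protein-coding neighbours (the nearest 20 on each side, where in the table), 34 had 60 counts or fewer over all 6 libraries and 12 had 0. RPS18, a ribosomal protein gene among them, had 53 counts, where the median of 77 ribosomal protein genes was 47915. These zeros therefore do not show whether PSMB8 and PSMB9 are expressed. PSMB10 (beta2i), on another chromosome, had 17, 24 and 15 counts in NG and 23, 18 and 21 in SMG. At 1.06 ± 0.363 CPM in NG and 0.938 ± 0.140 in SMG the groups overlapped (-0.15 ± 0.28, edgeR adjusted p = 0.704). Per kilobase of transcript PSMB10 was at 0.874 CPM in NG, against 136 for PSMB7, the subunit it replaces. PSMB10 shares exons on the same strand with a read-through gene, ENSG00000261884, which had 40 to 47 counts in NG and 61 to 80 in SMG, so reads may be split between them. The thymus subunit PSMB11 had 1 count in each of 2 SMG libraries, and the testis subunit PSMA8 had 0 counts in all libraries, where 3 counts correspond to 0.131 to 0.184 CPM. That floor covers counting error alone.

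**Figure D3:**
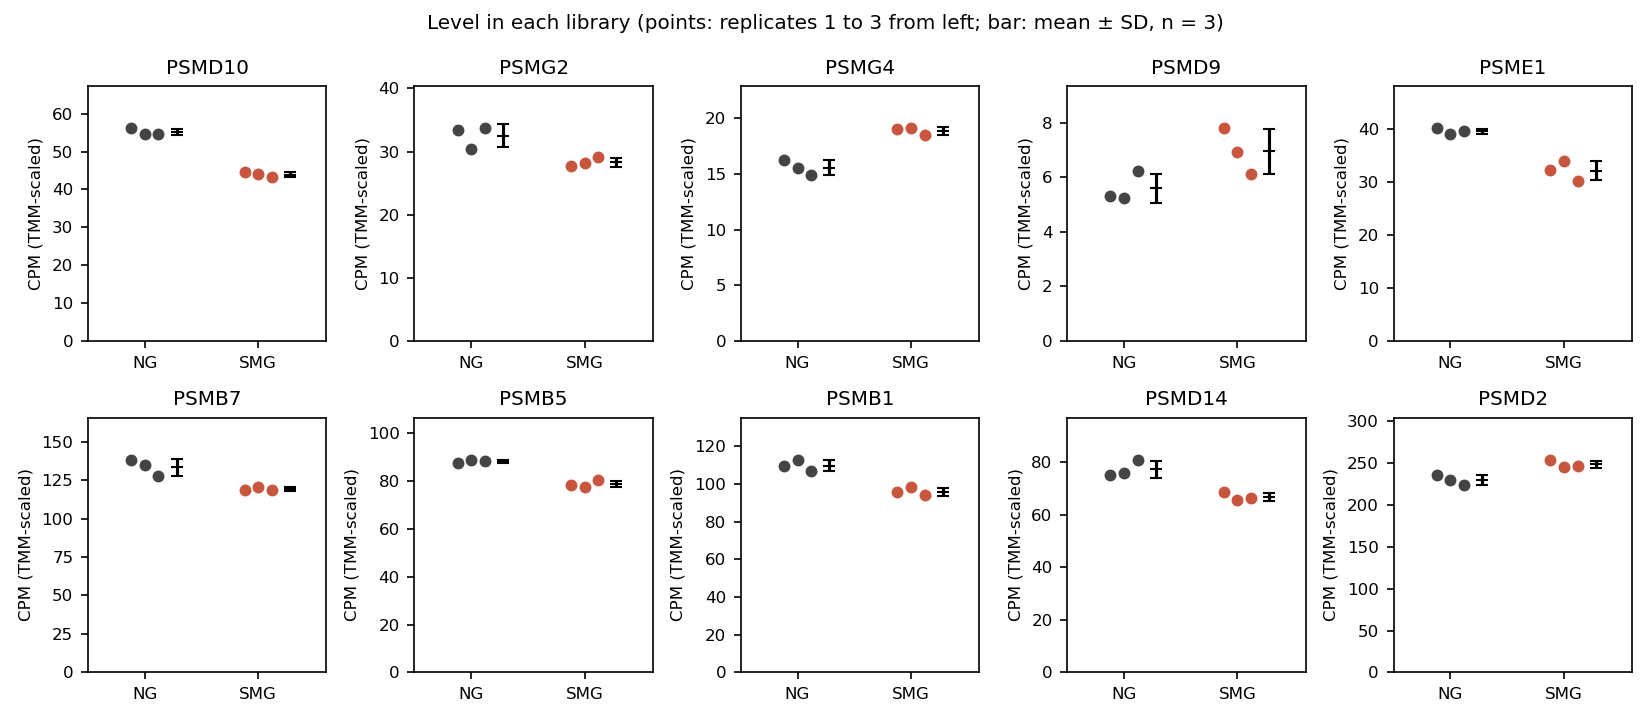
Level (CPM, TMM-scaled, axes from 0) of 10 members in each NG (grey) and SMG (red) library, with the mean ± SD (n = 3) beside the points. Of these members, PSMD10, PSME1, PSMB7, PSMB5, PSMB1, PSMG2 and PSMD14 are lower in all SMG libraries, PSMG4 and PSMD2 are higher, and the groups overlap for PSMD9.

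Of the 17 cap genes tested, 2 rose and 3 fell as measured (median -0.07), against 2 higher and 2 lower with the trend removed (median 0.03). As measured, 11.8% were higher and 17.6% lower, against 17.3% and 18.5% of all genes. PSMD14 (Rpn11), the deubiquitinase that removes ubiquitin chains from the substrate, was at 75.1, 75.8 and 80.8 CPM in NG and at 68.5, 65.5 and 66.4 in SMG. All SMG libraries were below NG (-0.21 ± 0.04, edgeR adjusted p = 3.93e-04), and with the trend removed the value was -0.09 (adjusted p = 0.0532). The other lid genes called were PSMD7 (Rpn8), the partner of PSMD14, and PSMD8 (Rpn12), each at -0.11 as measured (adjusted p = 0.0396 and 0.0304). PSMD7 turned to 0.01 with the trend removed (adjusted p = 0.824), and PSMD8 was at -0.10 (adjusted p = 0.0238). Both calls ended with DESeq2 (adjusted p = 0.1197 for PSMD7 and 0.0896 for PSMD8), with library size scaling alone and with some other settings. Leaving out single libraries ended that of PSMD7 for all but NG replicate 2 (adjusted p up to 0.126), and that of PSMD8 without NG replicate 2, SMG replicate 1 or SMG replicate 3 (up to 0.205). PSMD12 (Rpn5) did not pass as measured (0.04, adjusted p = 0.595) and was higher with the trend removed (0.14, adjusted p = 0.0154).

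The base of the cap had 2 higher and 0 lower of 9 as measured, and 1 higher and 1 lower with the trend removed. PSMD2 (Rpn1), the scaffold that docks ubiquitin receptors and the deubiquitinase USP14, had the highest CPM of the members. It was at 236, 230 and 224 CPM in NG and at 254, 246 and 247 in SMG, all above NG (0.11 ± 0.03, edgeR adjusted p = 0.00909). After trend removal it was at 0.06 (adjusted p = 0.130), and without SMG replicate 1 its adjusted p was 0.0563. PSMC5 (Rpt6), an ATPase of the base, was at 73.5, 71.5 and 74.7 CPM in NG and at 73.7, 84.1 and 82.4 in SMG. SMG replicate 1 lay within the NG range, and the others above it (0.13 ± 0.05, edgeR adjusted p = 0.0313). The call of PSMC5 ended with DESeq2 (adjusted p = 0.0798), with limma-voom and without each of 4 libraries in turn, up to an adjusted p of 0.210 without SMG replicate 2; with the trend removed it was at 0.19 (adjusted p = 9.23e-04). The other ATPases, PSMC1, PSMC2, PSMC3, PSMC4 and PSMC6, did not pass as measured, at -0.11 to 0.04. PSMC1 (Rpt2) was lower with the trend removed (-0.10, adjusted p = 0.0283; -0.09 as measured). PSMC3 (Rpt5) was spread most, at 71.1 CPM in SMG replicate 1 and 86.4 to 92.8 in the other libraries.

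Summed over members, the core was at 1122, 1111 and 1089 CPM in NG and at 1014, 1020 and 999 in SMG, and the cap at 1813, 1819 and 1821 CPM in NG and at 1756, 1822 and 1780 in SMG. The core sum was lower in all SMG libraries (-8.70% in the means), while the cap sums overlapped (-1.74%). The ratio of cap to core stood at 1.62, 1.64 and 1.67 in NG and at 1.73, 1.79 and 1.78 in SMG. After trend removal the change was -3.18% for the core and 0.775% for the cap, and the ratio went from 1.64, 1.66 and 1.71 to 1.71, 1.76 and 1.75, where 1 NG library lay above the lowest SMG library. These sums are given as a description with no test. Core genes have shorter transcripts than cap genes (medians of 1733 and 2939 bases).

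**Figure D4:**
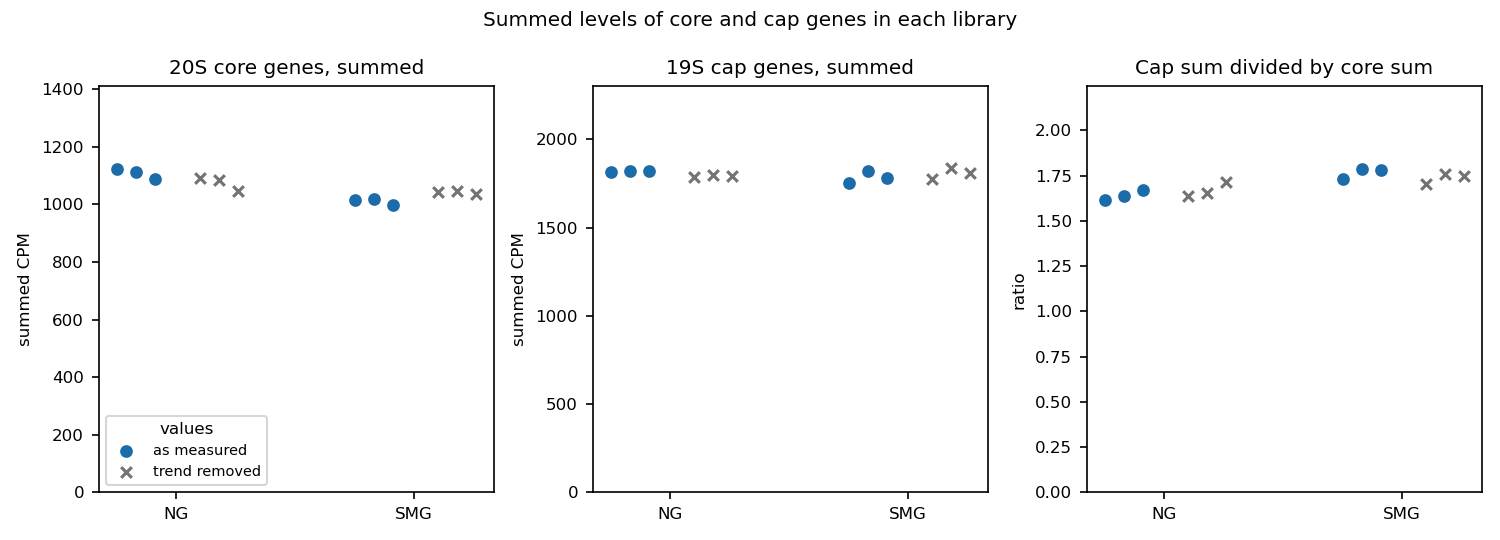
Summed CPM of the core genes and of the cap genes, and the ratio of the sums, in each library, as measured (blue circles) and with the length and GC trend removed (grey crosses); axes start at 0. As measured the core is lower and the ratio higher in all SMG libraries, and with the trend removed the groups overlap in the ratio.

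Of the 5 other activators and the inhibitor, 1 fell (20%; 18.5% of all genes). PSME1 encodes the alpha subunit of PA28 (11S), a ring that opens the core without ATP or ubiquitin and is induced by interferon-gamma. It was at 40.03, 39.05 and 39.50 CPM in NG and at 32.2, 33.9 and 30.2 in SMG. The groups were well apart (-0.30 ± 0.05, edgeR adjusted p = 8.25e-05), also with the trend removed (-0.26, adjusted p = 2.34e-04). Its partner PSME2 (PA28 beta) was at 36.6, 41.8 and 45.3 CPM in NG and at 39.3, 37.3 and 37.3 in SMG. The NG libraries of PSME2 enclosed those of SMG, and it did not pass (-0.11 ± 0.06, edgeR adjusted p = 0.163). The difference between the PSME1 and PSME2 responses was not tested. The nuclear PA28 gamma gene PSME3 and PSME4, which encodes the cap PA200, were at 0.08 and 0.06 and did not pass as measured; with the trend removed both were higher (0.09 and 0.10, adjusted p = 0.0481 and 0.0160). PSMF1, the core inhibitor PI31, was at 91.3 CPM in both groups (0.00031 ± 0.04, edgeR adjusted p = 0.997).

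The 7 assembly chaperones held both the deepest fall and the largest rise of the members, with 2 lower and 2 higher. Each direction took 28.6% of the 7, against 18.5% of all genes lower and 17.3% higher. PSMD10 (gankyrin), which holds the ATPase PSMC4 during assembly of the base and is known also as an oncoprotein, was at 56.1, 54.6 and 54.7 CPM in NG and at 44.6, 44.1 and 43.2 in SMG. The libraries of each group lay close together, and the groups were far apart (-0.33 ± 0.05, edgeR adjusted p = 3.35e-06). With the trend removed the fall was shallower (-0.16, adjusted p = 0.00588). The other base chaperones had positive values, and 1 of them passed. PSMD9 (p27) was at 5.33, 5.23 and 6.22 CPM in NG and at 7.79, 6.92 and 6.13 in SMG, so the groups overlapped (0.31 ± 0.12, edgeR adjusted p = 0.0353). Its call ended with DESeq2 (adjusted p = 0.134), with limma-voom, and without each of 4 libraries in turn, up to 0.191 without SMG replicate 1. PSMD9 also shares exons on its own strand with CFAP251. PSMD5 (S5b) was at 10.2, 10.8 and 10.7 CPM in NG and 12.8, 11.7 and 11.5 in SMG. It did not pass as measured (0.18 ± 0.09, edgeR adjusted p = 0.104) and was higher with the trend removed (0.28, adjusted p = 0.0100).

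Chaperones of the core work in pairs, PSMG1 with PSMG2 and PSMG3 with PSMG4. PSMG2 (PAC2) was at 33.4, 30.4 and 33.6 CPM in NG and at 27.7, 28.1 and 29.1 in SMG. All SMG libraries were lower (-0.20 ± 0.06, edgeR adjusted p = 0.00730), also with the trend removed (-0.16, adjusted p = 0.0296), but the adjusted p was 0.0526 without NG replicate 1. Its partner PSMG1 did not pass (-0.16 ± 0.07, edgeR adjusted p = 0.0604). PSMG4 (PAC4) was at 16.2, 15.5 and 14.9 CPM in NG and at 19.02, 19.08 and 18.48 in SMG. The groups were apart by more than their own spread (0.28 ± 0.07, edgeR adjusted p = 0.00302; 0.22 with the trend removed, adjusted p = 0.0123). Exons of PSMG4 overlap TUBB2B, at 820 CPM in NG, and SLC22A23 on the other strand. Whether counting used strand is not stated, so reads of the genes may be mixed; TUBB2B did not pass (0.19 ± 0.15, edgeR adjusted p = 0.397), and SLC22A23 rose as measured (0.17 ± 0.06, adjusted p = 0.0201) but was at 0.03 with the trend removed (adjusted p = 0.687). PSMG3 (PAC3) was at -0.02 ± 0.08 (adjusted p = 0.875). In all, 19 members have exons that overlap a gene on the other strand, among them PSMC5, PSMD14, PSME1 and PSMG2, and the same limit holds for them.

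Levels per kilobase of the principal transcript in NG had medians of 57.7 CPM for the core, 46.3 for the cap, 29.4 for the activators and inhibitor, and 11.3 for the assembly chaperones. Cap genes lay within 14.3 to 116 CPM per kilobase, the core within 0.874 to 154. The core genes at the low end included PSMA6 (3.65), PSMA2 (4.07) and PSMA1 (15.6), which like PSMB10 share exons on the same strand with read-through genes. PSMA5 (14.2), also at the low end, overlaps no exon of another gene in the annotation used here. A pseudogene, PSMA6P1, is 97.4% identical to a PSMA6 transcript and held 145 counts over all libraries against 442 for PSMA6. The sources used here do not say how reads in shared exons or with several matches were counted. The levels of PSMA6, PSMA2, PSMA1 and PSMB10 are therefore uncertain. Of 44 annotated pseudogenes of members in the table, 22 had a count, 672 in all, or 0.163% of the members' total.

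**Figure D5:**
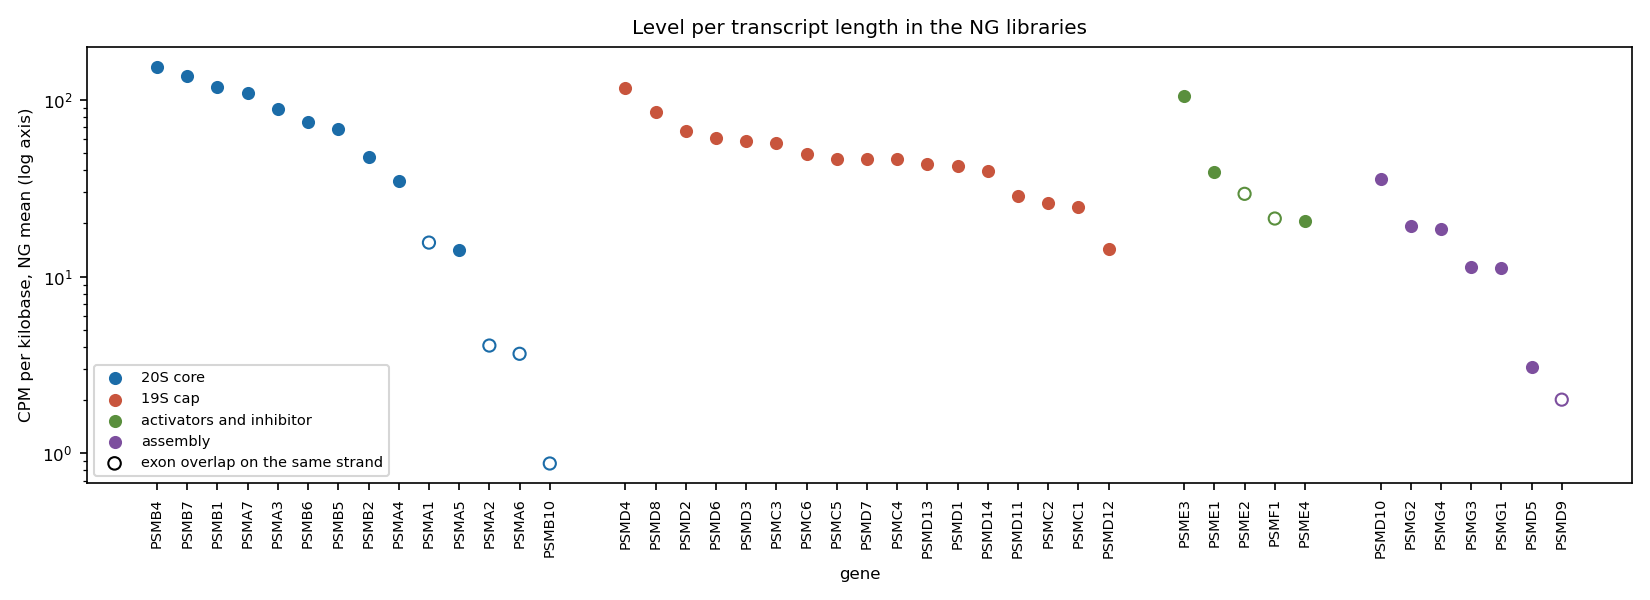
Mean NG level per kilobase of principal transcript (CPM per kilobase, log axis) of each tested member, ordered within its part; open circles mark an exon overlap with another gene on the same strand. Open circles take 4 of the 5 lowest places in the core.

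Other genes of the pathway were taken from lists drawn up by function. Counts of each list stand beside 18.5% of all genes lower and 17.3% higher as measured. With the trend removed these shares were 15.0% and 15.8%. Among 14 proteasome subunits and helpers outside the naming rule, 6 fell and 4 rose (median -0.09; 2 lower and 5 higher with the trend removed). SEM1, a small lid subunit, went from 36.3 ± 4.87 to 28.7 ± 3.13 CPM (-0.33 ± 0.10, edgeR adjusted p = 0.0324), ZFAND2A was at -0.31 ± 0.10, and FBXO7, a ubiquitin ligase subunit that binds PSMF1, fell from 122 to 104 CPM (-0.23 ± 0.04, adjusted p = 1.06e-05). With the trend removed, SEM1 (-0.16) and ZFAND2A (-0.19) did not pass. Of 11 regulators of proteasome genes, 3 fell and 2 rose (median -0.06; 3 lower and 0 higher with the trend removed). NFYB, a subunit of NF-Y, fell from 81.4 to 67.2 CPM (-0.28 ± 0.04, adjusted p = 1.27e-05), NGLY1, which helps to activate NFE2L1, was at -0.17 ± 0.06, and KEAP1, the inhibitor of NFE2L2, rose (0.22 ± 0.05); NGLY1 (-0.03) and KEAP1 (0.10) did not pass with the trend removed. NFE2L1, the factor that raises proteasome genes when proteasome activity is low, was at 192 CPM in both groups (0.0016 ± 0.03, edgeR adjusted p = 0.977; -0.09 with the trend removed, adjusted p = 0.0157). It was chosen for naming with its values known.

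Ubiquitin genes were mostly lower. Of 6 ubiquitin precursor and E1 genes, 5 fell and 1 rose (median -0.14; 3 lower and 1 higher with the trend removed). RPS27A, a fusion of ubiquitin with a ribosomal protein, fell from 310 ± 29.4 to 230 ± 0.511 CPM (-0.43 ± 0.05, edgeR adjusted p = 5.01e-05), and UBA1, the main E1 enzyme, rose (0.22 ± 0.03). Ubiquitin shuttles and VCP with its cofactors had 5 higher and 0 lower of 11 (median 0.09; 5 and 0 with the trend removed), led by the VCP cofactor NPLOC4 (0.33 ± 0.04, edgeR adjusted p = 3.88e-07), the shuttle UBQLN2 (0.21 ± 0.05) and UFD1 (0.17 ± 0.05), the partner of NPLOC4. In the interferon response and antigen processing list, 10 of 16 genes were tested, 5 lower and 2 higher (median -0.19; 4 and 2 with the trend removed). IFIT1 fell from 2.08 ± 0.337 to 1.14 ± 0.202 CPM (-0.85 ± 0.22, edgeR adjusted p = 0.00277), IRF9 rose from 1.76 ± 0.366 to 2.75 ± 0.157 CPM (0.64 ± 0.18), and B2M, the light chain of class I molecules, fell from 45.8 to 32.4 CPM (-0.50 ± 0.06, adjusted p = 3.70e-08). The untested genes of that list include TAP1 and TAP2, which lie beside PSMB8 and PSMB9, and TAPBP, from the same region.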

How the data were processed

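The authors deposited raw counts for each Ensembl gene in each library. The submitters' processing notes list HISAT2, SAMtools, featureCounts, DESeq2 and build hg19. Tool versions, the annotation, strand use and the handling of multiply mapped reads were not given in the sources used here. Symbols came from a gene name table (51996 genes) and GENCODE 29 (52338 in all). GENCODE 29 is on another build, so it gave names, types, exon overlaps, lengths and GC content, not positions. Promoters come from RefSeq. Genes were filtered with filterByExpr, scaled by TMM and tested with edgeR's quasi-likelihood test (robust), SE being the log2 fold change divided by the root of F. P-values were adjusted over all 17803 genes. At these depths the median SE was 0.0524 for genes at 10 CPM or more. Trends were natural splines with 4 degrees of freedom for length and for GC content, per library, entered as offsets. The scripts were first tested on simulated data. Levels were written out for members that passed, up to 4 a part, and for catalytic subunits and PSMD2. Up to 3 called genes were named per pathway list. One gene that this rule would name is not reported here. Members and lists were chosen with earlier results of these data known. Versions were 4.0.16 for edgeR, 1.42.0 for DESeq2, 3.58.1 for limma and 4.3.3 for R.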

Additional observations from a re-analysis of the deposited data

How the results depend on the processing

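DESeq2 called 2 members higher and 8 lower, and limma-voom 2 and 12. Library size scaling alone gave 8 lower and moved the members' median to -0.0561. With the length and GC trend removed, 7 members were lower, 8 higher and the median was 0.0023, that of the cap turning to 0.0255; PSMA3 turned to 0.12 and PSMD7 to 0.0132. With lengths of principal transcripts, an alternative chosen after seeing the data, 5 were lower, 9 higher, the median was -0.0086 and that of the cap 0.0283; PSMA3 was at 0.13, PSMC6 at 0.10 and PSMD7 at 0.0134; the cause was not tested. Without single libraries, 8 to 13 members were lower and 2 to 6 higher, with medians from -0.101 to -0.0590 and 4961 to 6092 genes called in all. The settings not named here (other scalings, filters, no robust estimation, protein-coding genes alone) kept 10 to 12 members lower and 4 higher. The replicate number as a block gave 12 lower, 4 higher, a median of -0.08 and 6333 genes called. Deviations of same-numbered libraries correlated at -0.0041, 0.018 and -0.028, and those of the other pairs at -0.043 to 0.045. Counting noise of weakly expressed genes enters these values, so they do not decide whether the numbers pair the samples. Depth limits PSMB10, PSMA6, PSMA2 and PSMD9, whose mean SMG levels were at most 6.94 CPM.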

Other observations

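Non-coding and other genes named after members are outside the rule and are given as values. PSMA3-AS1, a long non-coding RNA named as antisense to PSMA3, rose from 57.0 ± 0.897 to 69.4 ± 0.711 CPM (0.28 ± 0.04, edgeR adjusted p = 8.27e-06), and was at 0.43 with the trend removed. It shares exons with ARMH4 on its strand, and overlaps no exon of PSMA3 in the annotation used here. PSMG3-AS1, antisense to PSMG3, rose from 14.3 ± 0.291 to 18.96 ± 0.765 CPM (0.41 ± 0.07, edgeR adjusted p = 6.64e-05), while PSMG3 was at -0.02. Exons of PSMG3-AS1 and PSMG3 overlap on opposite strands. Whether counting used strand is not stated, so their reads may be mixed. PSMC3IP, a meiotic recombination factor with no place in the proteasome, did not pass as measured (0.16 ± 0.09, edgeR adjusted p = 0.184) and was higher with the trend removed (0.25, adjusted p = 0.0361). PSME3IP1, a partner of PSME3, did not pass (-0.08 ± 0.04, edgeR adjusted p = 0.143). PSMC1P1, a pseudogene 99.9% identical to a PSMC1 transcript, held 301 counts over all libraries, or 2.35% of the counts of PSMC1.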
